A study of Mus musculus with 35 samples.

Results

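The Nodal and Activin pathway was followed through 9 of its genes among the 54446 genes of an RNA-seq table, found by symbol and each present once. They comprise the ligand genes Nodal and Gdf3, Tdgf1 (also called Cripto, the EGF-CFC co-receptor), Acvr2b (a type II receptor) and the signal transducer Smad2. The others are Foxh1, the DNA-binding partner of Smad2, and the secreted inhibitors Lefty1, Lefty2 and Cer1, the last of which also binds BMP ligands. Levels are in TPM, a unit corrected for transcript length and library size, so that they can be set side by side between genes. Differences are given on the log2(TPM + 1) scale, which understates the change of genes near 0 TPM.

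Nodal and Activin are ligands of the TGFβ family that keep epiblast cells pluripotent and later pattern them into mesoderm and endoderm. Both act through type I and type II activin receptors, which phosphorylate Smad2 and Smad3, and these enter the nucleus with Smad4 and partners such as Foxh1. Nodal, unlike Activin, needs an EGF-CFC co-receptor, and the pathway switches on its own secreted inhibitors, the Lefty proteins. In the post-implantation mouse embryo, Nodal is made in the epiblast, while Lefty1 and Cer1 are classical products of the anterior visceral endoderm that limit it on one side.

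The study derived mouse epiblast stem cells (EpiSCs) that grow in Matrigel as epithelial spheres around a lumen, and compared them with other cultures and with the epiblast of the embryo. There were 27 bulk libraries in 9 groups of 3. The ESC-derived and the embryo-derived 3D EpiSCs, the latter grown out of E5.5 epiblasts, were kept in a medium with bFgf2, 50 ng/ml Activin-A, the tankyrase inhibitor XAV939, which damps Wnt signaling, and the BMP antagonist Noggin. The 2D EpiSCs, converted from ESCs, were grown on fibronectin with bFgf2 and 20 ng/ml Activin-A but neither XAV939 nor Noggin. Activin-A dose, matrix, both inhibitors and base medium change together between 3D and 2D, so their parts in any difference cannot be told apart. The embryo-derived 3D cells, from LifeAct-GFP and wild-type CD1 embryos by the study's methods, also differ from the 2D cells in origin. For them, origin and culture conditions cannot be told apart either. Epiblast-like cells (EpiLCs) were ESCs held in bFgf2 and Activin-A for 48 h, at an Activin-A dose not given in the sources used here. The embryo samples were untreated, and wild-type apart from the Pdgfra:H2B-GFP reporter of some mice. Inner cell mass was cut out by laser at E3.5. At E4.5 epiblast cells were picked by hand after immunosurgery. By the study's methods these were GFP-negative cells of Pdgfra:H2B-GFP embryos, picked to leave out primitive endoderm. At E5.5, E6.5 and E7.5 epiblasts were stripped of visceral endoderm and extra-embryonic ectoderm, and at E7.5 also of the allantois. Each embryo library was a pool of several embryos, of strain CD-1 by the labels and of CD-1 or Pdgfra:H2B-GFP mice by the study's methods. Nothing in the labels says that the 3 libraries of a culture came from separate cultures, so the p-values of the cultures measure the spread between libraries only. Cultures and embryos were prepared with different library kits, and no test was made between them.

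Members were mapped on mm10 as the table gives them. Lefty2 (chr1:180893108-180899103) and Lefty1 (chr1:180935022-180938400) are neighbors on the plus strand, and the others lie apart: Nodal at chr10:61417972-61425338, Gdf3 at chr6:122605403-122610087, Tdgf1 at chr9:110939603-110946158, Acvr2b at chr9:119402118-119434995, Foxh1 at chr15:76668225-76669948 and Cer1 at chr4:82881751-82885148. All are protein-coding. Of these genes, Acvr2b alone overlaps another annotated gene, the antisense transcript Gm47320.

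Lefty1 and Lefty2 are closely related copies, so it was checked how far reads could belong to either gene. Of the 100-base windows of Lefty1 transcripts, 5.85% were found in Lefty2, and of those of Lefty2, 3.86% in Lefty1, so most reads can be told apart. Tdgf1 shared 3.17% of its windows with its processed copy Tdgf1-ps1, and the 6 other members shared none with any other gene. Tdgf1-ps1 was itself listed at 64.7 to 117 TPM (group means) in the cultures and fell with Tdgf1 in the embryo to 0.156 TPM at E7.5. How far these are reads of Tdgf1 was not tested.

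Promoters are shown for 3 members with contrasting behavior in the embryo: Nodal and Tdgf1, which fell together at E7.5, and Cer1, which did not. Each run is the 250 bases before the RefSeq start site on the gene's own strand (GRCm38.p6), with the Smad motif CAGAC, on either strand, in capitals.
Nodal (chr10:61417722-61417971, plus strand): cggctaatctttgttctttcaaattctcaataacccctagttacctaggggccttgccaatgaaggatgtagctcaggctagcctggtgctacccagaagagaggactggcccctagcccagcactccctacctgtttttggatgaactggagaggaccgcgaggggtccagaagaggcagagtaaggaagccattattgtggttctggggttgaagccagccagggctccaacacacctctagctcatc
Tdgf1 (chr9:110946159-110946408, minus strand): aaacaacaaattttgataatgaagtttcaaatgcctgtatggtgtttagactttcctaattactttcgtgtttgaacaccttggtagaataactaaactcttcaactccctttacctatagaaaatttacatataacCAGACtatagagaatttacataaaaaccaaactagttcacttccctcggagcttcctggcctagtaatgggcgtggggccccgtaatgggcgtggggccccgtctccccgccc
Cer1 (chr4:82885152-82885401, minus strand): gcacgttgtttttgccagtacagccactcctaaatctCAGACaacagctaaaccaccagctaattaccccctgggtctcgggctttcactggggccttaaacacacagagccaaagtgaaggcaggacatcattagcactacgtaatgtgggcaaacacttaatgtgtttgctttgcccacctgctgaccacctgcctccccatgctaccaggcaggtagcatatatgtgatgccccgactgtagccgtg
CAGAC was found once in Tdgf1, at position -113, and once in Cer1, at position -213, and was not found in Nodal. It was also found once in Acvr2b, at -233. In windows that also take in the first 50 bases past the start site, 49.6% of 32851 mouse promoters hold this motif. The Foxh1 motif AATNCACA, held by 3.6% of promoters, and the Smad palindrome GTCTAGAC, held by 0.213%, were in none of the 4 members' windows. Promoters of Gdf3, Foxh1, Lefty1 and Lefty2 are not shown.

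The tissue labels were checked with marker genes before the members were read. In the cultures, 6 of 6 markers of epiblast and pluripotency were above 1 TPM in every group, and the summed level of 6 visceral endoderm markers was at most 3.78 TPM in any library. The epiblasts of E5.5, E6.5 and E7.5 carried 6 of 6 visceral endoderm markers above 1 TPM, with sums of 741 to 798, 1223 to 1293 and 1310 to 1345 TPM, although that layer had been removed by hand. In these stages the defining markers Ttr and Afp averaged 84.8 and 81.0 TPM at E5.5, 151 and 119 TPM at E6.5, and 266 and 100.3 TPM at E7.5. At E3.5 and E4.5 Afp was listed at 0 and Ttr averaged at most 0.911 TPM, although 3 of the 6 markers were above 1 TPM and the sums were 93.7 to 95.3 and 111 to 128 TPM, mostly from Cubn (48.7 and 91.9 TPM) and Amn (29.8 and 23.7 TPM). Markers of trophectoderm summed to 1368 to 1468 TPM at E3.5 and 1050 to 1100 TPM at E4.5, against 125 to 136 TPM at E5.5. Fewer cells of a type and less RNA per cell cannot be told apart in such bulk samples. Among the cultures, ESC-derived 3D EpiSC library 3 stood apart from libraries 1 and 2. In 3 pairs of libraries (ESC-derived 3D 1 and 2, embryo-derived 3D 2 and 3, 2D 1 and 2) genes differed by a median of only 0.0569 to 0.0649 on the log2 scale, against 0.131 to 0.271 in the other pairs of one culture. Whether such a pair is one culture read again was not tested, and calls lost when the pairs were averaged are named below.

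**Figure D1:**
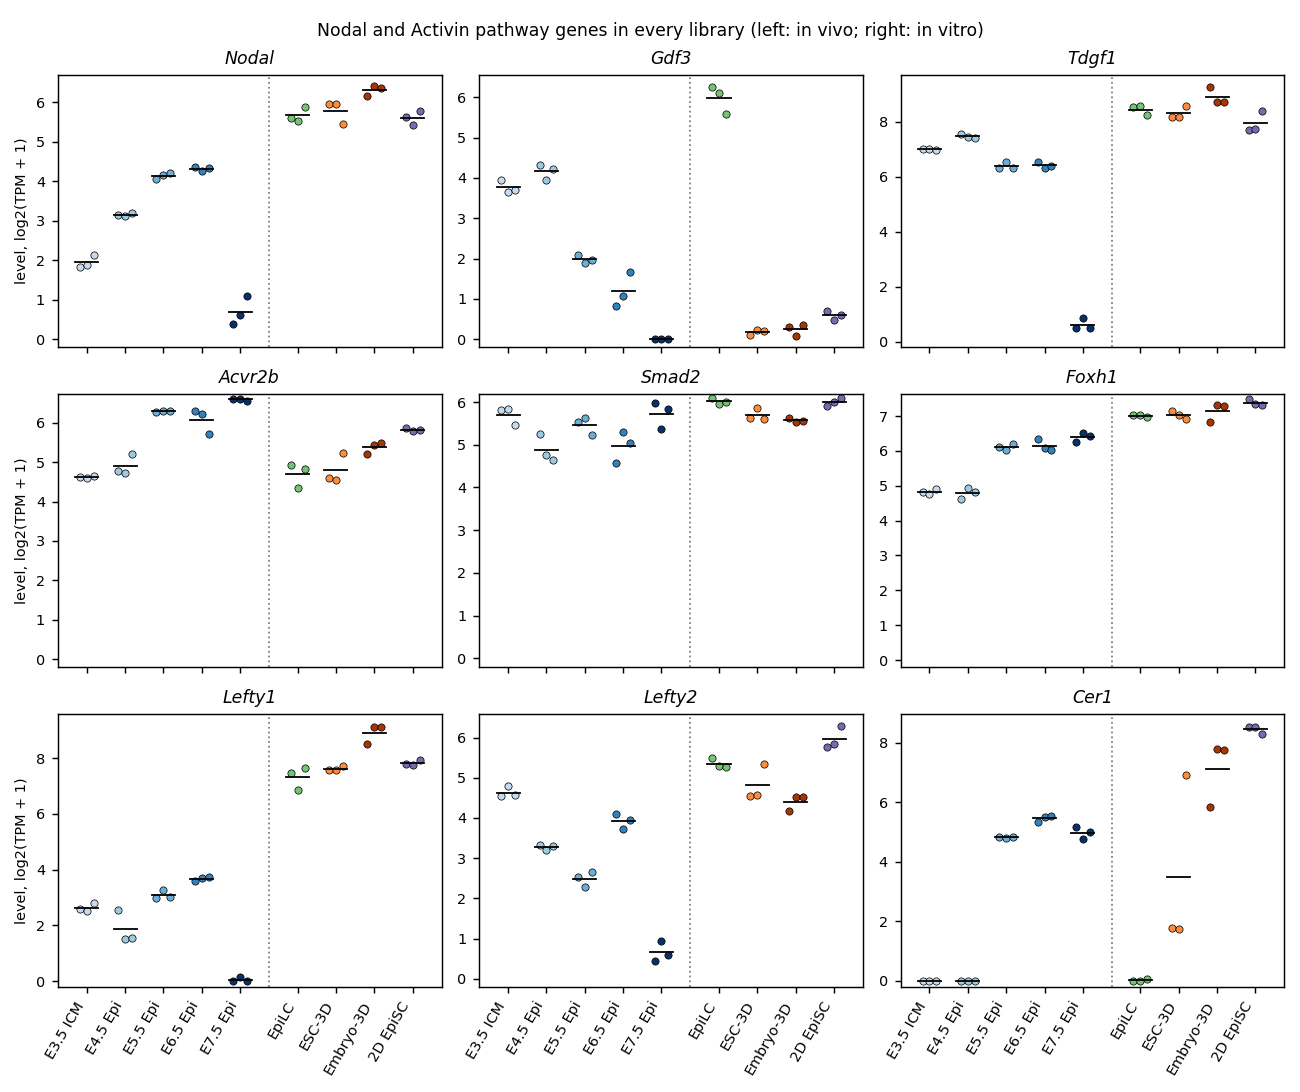
Level of each of the 9 genes in all 27 libraries as log2(TPM + 1); points are libraries, black bars are group means, and the dotted line parts embryo stages (left) from cultures (right), which were made with different kits. Nodal climbs to E6.5 and is near 0 at E7.5, Tdgf1, Lefty1 and Lefty2 are near 0 at E7.5, and Cer1 is near 0 in EpiLCs and high in 2D EpiSCs.

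In the embryo, Nodal rose stage by stage to the early gastrula and was then nearly lost. Its levels were 2.55, 2.7 and 3.4 TPM at E3.5, 7.69 to 8.20 TPM at E4.5, 15.8, 16.9 and 17.5 TPM at E5.5, and 18.2 to 19.5 TPM at E6.5. At E7.5 the libraries held 0.301, 0.528 and 1.16 TPM. No library of one stage overlapped those of the next stage in this order. In limma fits over all 15 embryo libraries, with Benjamini-Hochberg adjustment over all tested genes, calls asked for an adjusted p under 0.05 together with a log2 difference over 1 in size. By this rule Nodal rose from E3.5 to E4.5 (by 1.20 ± 0.15 SE, adjusted p = 1.2e-05) and fell from E6.5 to E7.5 (-3.62 ± 0.15, adjusted p = 3.96e-10), when its mean dropped 28.6-fold. From E4.5 to E5.5 the difference of 0.99 ± 0.15 lay just under the size asked for, with an adjusted p of 5.16e-05. From E5.5 to E6.5 it was 0.17 ± 0.15 and did not pass (adjusted p = 0.50).

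Gdf3, a relative of Nodal expressed in the inner cell mass and in naive pluripotent cells, followed another course. It stood at 11.6 to 14.4 TPM at E3.5 and 14.5 to 18.9 TPM at E4.5, then at 2.71 to 3.24 TPM at E5.5 and 0.774, 1.12 and 2.17 TPM at E6.5. It was listed at 0 in the 3 E7.5 libraries. The fall from E4.5 to E5.5 was 5.77-fold (-2.18 ± 0.17 on the log2 scale, adjusted p = 1.07e-07). The step from E6.5 to E7.5 was called too (adjusted p = 7.64e-05), but without E6.5 library 3 it shrank to a difference of -0.95 and was no longer called. Of the genes for the Activin subunits, Inhba averaged at most 0.538 TPM in any group, and Inhbb averaged 2.4 TPM at E3.5, close to Nodal there, and 0.0523 TPM at E4.5 (-1.69 ± 0.10, adjusted p = 9.98e-09). Inhbb was at most 0.272 TPM in any later embryo library. It passed the filter on low values through E3.5 alone and so had to differ. Pcsk6, which encodes a convertase that cleaves the Nodal precursor, dropped at E5.5 from 76.5 to 9.57 TPM (-2.88 ± 0.10, adjusted p = 3.3e-11).

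Tdgf1, which encodes a co-receptor of Nodal, was the most abundant member in the embryo up to E6.5. It rose from 125 to 127 TPM at E3.5 to 168, 172 and 184 TPM at E4.5, a difference of 0.47 that was under the size asked for. It then fell 2.11-fold to 79.1, 79.3 and 90.5 TPM at E5.5 (-1.07 ± 0.10, adjusted p = 9.61e-07) and stood at 78.8 to 91.4 TPM at E6.5. At E7.5 only 0.410, 0.416 and 0.814 TPM were left, 155-fold less (-5.80 ± 0.10, adjusted p = 4.41e-13). This was the largest change of any member with a level above 0 in every library of both stages. Cfc1 encodes the other EGF-CFC co-receptor. It rose at E5.5 (2.57 ± 0.35, adjusted p = 2.3e-05) and averaged 9.61 ± 0.845 TPM (SD, n = 3) at E6.5 and 17.4 ± 1.25 TPM at E7.5, a difference of 0.80 that was not called.

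The receptor and the intracellular members did not share the loss at E7.5. Acvr2b was at 23.1 to 23.9 TPM at E3.5, 25.4, 26.2 and 35.6 TPM at E4.5, and 76.1, 77.2 and 78.0 TPM at E5.5. It rose 2.65-fold in this last step (1.39 ± 0.14, adjusted p = 1.67e-06) and was highest at E7.5, with 93.4, 96.2 and 96.6 TPM. Foxh1 behaved in a similar way: 23.5 to 29.5 TPM at E4.5 became 63.6, 67.8 and 72.1 TPM at E5.5 (1.32 ± 0.11, adjusted p = 1.99e-07), and 75.4 to 90.7 TPM were measured at E7.5. Smad2 (chr18:76241580-76305731) was called at no step. Its stage means lay between 29.1 TPM at E4.5 and 52.9 TPM at E7.5, and libraries of stages next to each other in rank overlapped throughout. From E6.5 to E7.5 the differences of Acvr2b (0.52 ± 0.14), Smad2 (0.76 ± 0.21) and Foxh1 (0.25 ± 0.11) compare with a median of 0.31 over all tested genes. After median-of-ratios rescaling, which brings that median to 0.01, they were 0.19, 0.43 and -0.08, so Foxh1 changed its sign. Smad3, the other receptor-activated Smad of this branch, rose at E7.5 from 7.53 ± 0.932 to 27.9 ± 1.28 TPM (1.76 ± 0.11, adjusted p = 2.45e-08).

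The 3 inhibitors followed 3 different courses. Lefty2 was highest at the start, with 22.2, 22.7 and 26.7 TPM at E3.5, and fell to 8.27 to 8.98 TPM at E4.5 (-1.35 ± 0.14, adjusted p = 2.87e-06) and to 3.86, 4.78 and 5.35 TPM at E5.5. It came back at E6.5 with 12.3, 14.4 and 16.2 TPM, 3.07-fold above E5.5 (1.43 ± 0.14, adjusted p = 3.95e-05). At E7.5 it was at 0.358, 0.518 and 0.926 TPM (-3.26 ± 0.14, adjusted p = 8.42e-10). Lefty2 therefore peaked at the blastocyst and again at the onset of gastrulation, when mesoderm markers summed to 157 to 219 TPM against 26.0 to 26.7 TPM at E5.5. They summed to 238 to 242 TPM at E7.5, where Lefty2 was nearly lost, and their part in its level was not tested. In the first step, from E3.5 to E4.5, primitive endoderm markers went from 436 to 448 TPM down to 48.8 to 63.1 TPM. By the study's methods, primitive endoderm was left out at E4.5 by picking GFP-negative cells, which is not described for E3.5. Stage and dissection thus change together in that step. The part of primitive endoderm in the changes of Lefty2 and Nodal there was not tested either.

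Lefty1 climbed only after implantation. It was at 4.66, 5.03 and 5.99 TPM at E3.5, 1.88, 1.94 and 4.94 TPM at E4.5, 6.84, 7.19 and 8.62 TPM at E5.5, and 11.0, 12.1 and 12.4 TPM at E6.5. At E7.5 it was listed at 0 in 2 libraries and at 0.0962 TPM in the third. The rise from E4.5 to E5.5 was called (1.21 ± 0.21, adjusted p = 0.000251), as was the loss at E7.5 (-3.64 ± 0.21, adjusted p = 1.56e-08). Lefty1 was below Lefty2 in every library of E3.5 and E4.5, above it in every library of E5.5, and below it again at E6.5, where the ratio of Lefty1 to Lefty2 was 0.682 to 0.986. Visceral endoderm markers were present at E5.5, E6.5 and E7.5. From E6.5 to E7.5, when Lefty1 was lost, the means of Ttr, Apob and Cubn went up and those of Afp, Apoa1 and Amn went down. The part of these cells in the Lefty1 level was not tested.

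Cer1 was listed at 0 in every E3.5 and E4.5 library. It appeared at E5.5 with 27, 27.2 and 27.8 TPM, stood at 39.1, 44.1 and 45.9 TPM at E6.5, and unlike the Lefty genes was still at 26.4, 31.3 and 34.6 TPM at E7.5. The differences of 0.63 ± 0.09 at E6.5 (adjusted p = 0.0010) and -0.48 ± 0.09 at E7.5 (adjusted p = 0.000931) were under the size asked for. Cer1 had to differ in this fit, because it passed the filter on low values only through the 3 later stages. It was present in the stages whose means were above 1 TPM for all 6 visceral endoderm markers, and the part of that layer in the Cer1 level of the embryo was not tested.

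**Figure D2:**
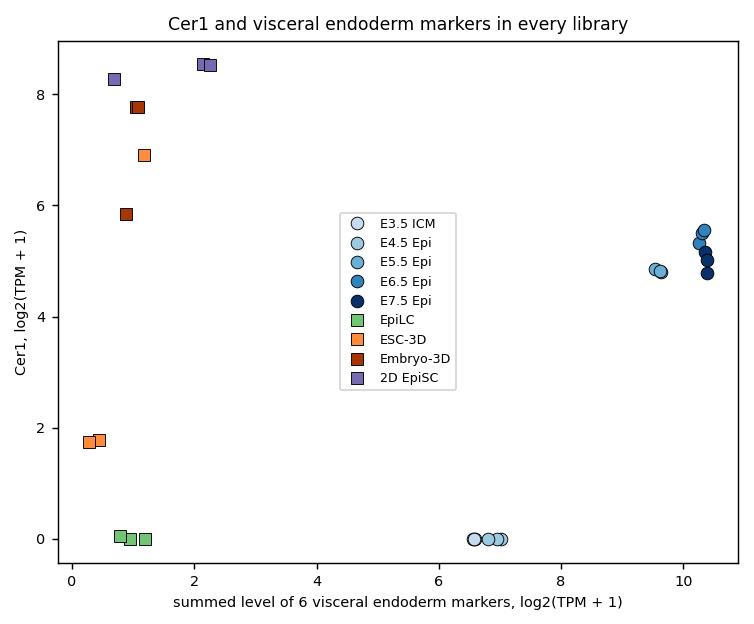
Cer1 against the summed level of 6 visceral endoderm markers (Afp, Apoa1, Apob, Amn, Ttr, Cubn) in each library, both as log2(TPM + 1); circles are embryo stages and squares are cultures. In the embryo the libraries with Cer1 are those with sums of 741 TPM or more, while the cultures reach 370 TPM of Cer1 with sums of at most 3.78 TPM.

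Counted by step, 1 of 9 members rose and 1 fell from E3.5 to E4.5, where 17.8% of the 11880 tested genes were called, 5.88% higher and 11.9% lower. From E4.5 to E5.5 4 members rose and 2 fell, where 24.4% were called, 14.9% higher and 9.47% lower. One of the 4, Cer1, had to differ, so 3 (Acvr2b, Foxh1 and Lefty1) are to be read against that share. From E5.5 to E6.5 Lefty2 rose and no member fell, where 1.2% were called, 0.715% higher and 0.48% lower. From E6.5 to E7.5 5 of 9 members fell and none rose, where 12.6% were called, 10.6% higher and 1.94% lower. The median difference of the 9 members in this step was -1.19, and that of all tested genes 0.31, which median-of-ratios rescaling took to 0.01 with the same 5 calls. In the same step markers of epiblast and pluripotency went from 1159 to 1230 TPM down to 355 to 383 TPM (Pou5f1 from a mean of 721 to 251 TPM, Utf1 from 191 to 8.56 TPM and Fgf5 from 97.0 to 4.99 TPM). Their part in the fall of the members was not tested. RNA was fragmented for longer and at a lower temperature at E3.5 and E4.5 than in later stages, so the step to E5.5 and the change of protocol cannot be told apart.

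The other genes of the pathway were counted from a list of 30, of which 27 were tested in the embryo. From E3.5 to E4.5 1 rose (Skil, by 1.72) and 4 fell (Pmepa1 at -1.95, Gsc at -1.81, Inhbb at -1.69 and Foxa2 at -1.004). Over all tested genes, 5.88% were higher and 11.9% lower in this step, so the list did not stand out. Inhbb, over 2 TPM at E3.5 alone, had to differ. From E4.5 to E5.5 9 rose and 2 fell, and 5 of the 9 were among the 8 genes listed as targets: Pmepa1 (1.62), Lhx1, Mixl1 (2.87), Gsc and Foxa2 (1.66). Over all tested genes, 14.9% were higher and 9.47% lower in that step. The largest of these rises were those of Gsc (3.37 ± 0.25) and Lhx1 (3.31 ± 0.13), which encode transcription factors of the organizer. Visceral endoderm markers went from 111 to 128 TPM up to 741 to 798 TPM in the same step. The part of that layer in the target levels of the embryo was not tested. Fst, which encodes the Activin-binding protein follistatin, rose from 1.79 ± 1.96 to 35.8 ± 3.10 TPM (adjusted p = 7.09e-07). Tgif1, which encodes a co-repressor of Smads, rose by 1.60 and Gdf1, a ligand gene, by 2.38, while Fstl3 fell by 2.25. Gdf1 shares a transcript unit with Cers1, so its values are uncertain. Lhx1, Mixl1 and Gdf1 were under 2 TPM in every E3.5 and E4.5 library, and Fst averaged under 2 TPM at both stages. These genes passed the filter on low values only through later stages, which favored their rise. From E5.5 to E6.5 5 targets rose and no other gene of the list was called, beside 0.715% of all tested genes higher and 0.48% lower. They were Mixl1 (2.31 ± 0.20), a gene of the primitive streak, with Gsc (1.35), Lhx1 (1.24), Foxa2 (1.09) and Eomes (1.03). The median of the 8 targets was 1.06, against -0.06 over all tested genes.

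At E7.5 the targets fell with their ligand. Eomes, which drives mesoderm and endoderm formation, went from 146, 159 and 173 TPM to 3.52, 3.70 and 5.09 TPM (-4.99 ± 0.11, adjusted p = 1.2e-12), Gsc fell by 4.09 ± 0.25, Pmepa1 (a feedback inhibitor of Smad activation) fell by 3.67 ± 0.15, and Mixl1 fell by 3.10 ± 0.20. Lhx1 (-2.48) and Skil (-1.88) were lower too. Thus 6 of 8 targets fell and none rose, with a median of -2.79, whereas 3 of the 19 tested list genes that are not targets rose (Smad3, Dand5 by 1.12 and Bambi by 1.07) and none fell. Foxa2, at -0.998, just missed the size asked for. Over all tested genes, 10.6% were higher and 1.94% lower in this step. Eomes is also a gene of trophectoderm, whose markers were high at E3.5 and E4.5, where Eomes was at 94.7 to 160 TPM.

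**Figure D3:**
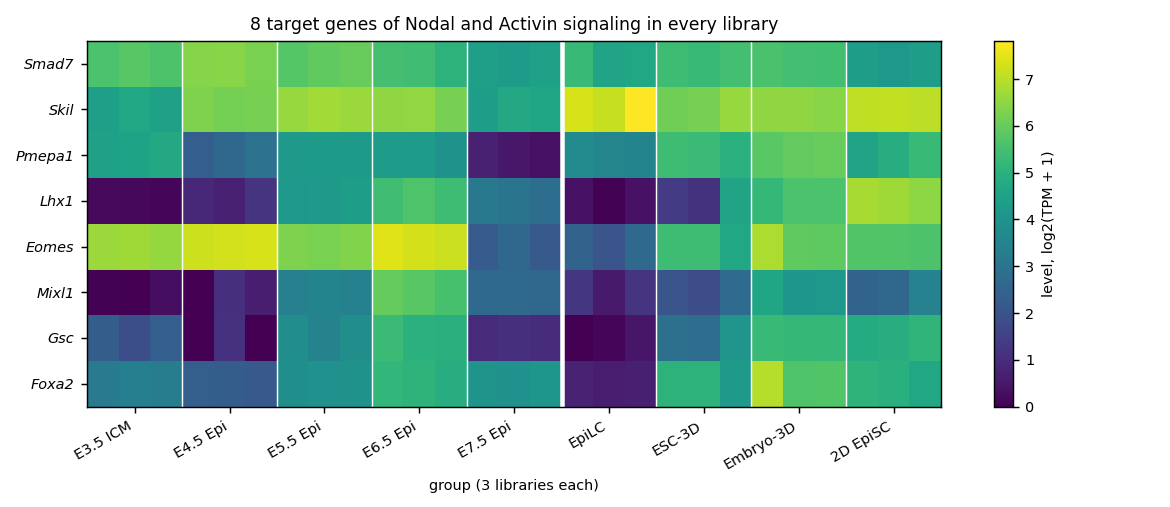
Level of the 8 target genes in each of the 27 libraries as log2(TPM + 1), by color; the thick white line parts embryo (left) from cultures (right), and thin lines part groups of 3 libraries. Gsc, Mixl1, Lhx1, Foxa2 and Eomes are brighter at E6.5 than at E7.5 and darkest among the cultures in EpiLCs, with Lhx1 also dark, at 1.64 and 1.21 TPM, in 2 ESC-derived 3D libraries.

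In culture, the members called between EpiSC cultures were Acvr2b and the inhibitors Lefty1, Lefty2 and Cer1. Nodal was at 41.9, 48.6 and 54.3 TPM in 2D EpiSCs, 42.6, 60.8 and 61.6 TPM in ESC-derived 3D EpiSCs, and 70.9, 81.7 and 83.6 TPM in embryo-derived 3D EpiSCs. Against 2D EpiSCs this was a difference of 0.17 ± 0.16 in the ESC-derived cells (adjusted p = 0.39), whose libraries overlapped, and of 0.70 ± 0.16 in the embryo-derived cells (adjusted p = 0.00595), which is under the size asked for. Tdgf1 was at 205, 209 and 334 TPM in 2D EpiSCs, 283, 288 and 374 TPM in the ESC-derived and 418, 419 and 615 TPM in the embryo-derived 3D cells. Only the latter stood above every 2D library. The difference of 0.97 ± 0.21 (adjusted p = 0.0048) was just under the size asked for and passed it in 4 of 14 alternative fits. Gdf3 was under 0.63 TPM in all 9 EpiSC libraries.

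Lefty2 was lower in both 3D cultures than in 2D EpiSCs. The 2D libraries held 53.1, 56.4 and 77.4 TPM, the ESC-derived 3D libraries 22.4, 22.8 and 39.9 TPM, and the embryo-derived 3D libraries 17.1, 22.0 and 22.0 TPM. No 3D library reached a 2D library. The differences were -1.14 ± 0.21 (adjusted p = 0.00165) and -1.56 ± 0.21 (adjusted p = 0.000226), or 2.2-fold and 3.06-fold by the means. The ESC-derived difference went to -0.92, under the size asked for, when TPM were rescaled by median-of-ratios factors, and to -0.97 without 2D library 3.

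Lefty1 took another course. It was at 216, 220 and 245 TPM in 2D EpiSCs and at 188, 192 and 208 TPM in ESC-derived 3D EpiSCs, a difference of -0.21 ± 0.20 that did not pass (adjusted p = 0.41), although no library overlapped. In embryo-derived 3D EpiSCs it was at 364, 551 and 558 TPM, above every 2D library by 1.08 ± 0.20 on average (adjusted p = 0.00197). This call was lost at 0.96 (adjusted p = 0.0574) when close pairs of libraries were averaged, and at 0.98 and 0.99 without embryo-derived library 2 or 3. Lefty1 exceeded Lefty2 in every culture library, by 3.16 to 4.14 times in 2D EpiSCs, 5.22 to 8.55 times in ESC-derived and 21.3 to 25.4 times in embryo-derived 3D EpiSCs, and 2.96 to 5.32 times in EpiLCs. The ratio was looked at after its values were seen and has no test. In the embryo it ran from 0 in 2 E7.5 libraries to 2.23 in an E5.5 library.

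**Figure D4:**
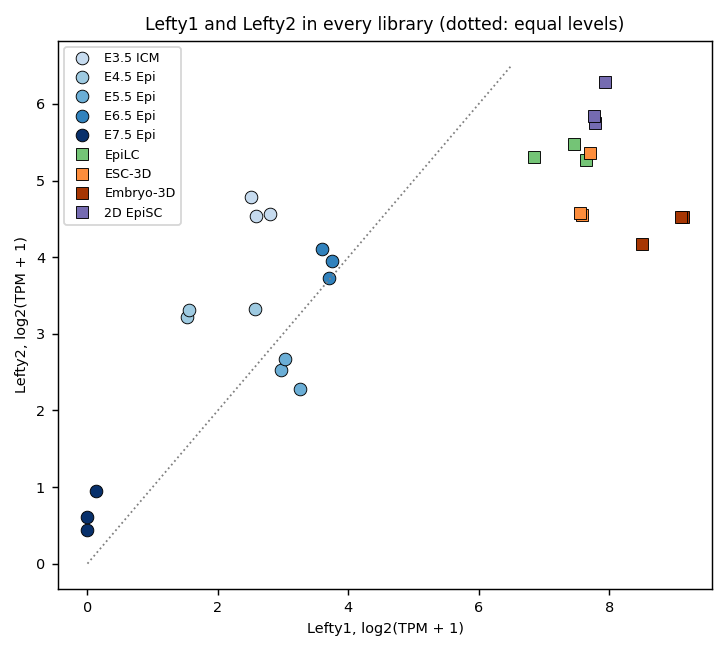
Lefty1 against Lefty2 in each library, both as log2(TPM + 1); circles are embryo stages, squares are cultures, and the dotted line marks equal levels. All 12 culture libraries lie below the line, with embryo-derived 3D EpiSCs farthest from it at 21.3 to 25.4 times more Lefty1, while E3.5 and E4.5 lie above it.

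Cer1 was the member that varied most among EpiSCs. The 2D libraries held 309, 370 and 370 TPM, and the embryo-derived 3D libraries 56.7, 217 and 218 TPM. Of the ESC-derived 3D libraries, libraries 1 and 2 held 2.44 and 2.36 TPM and library 3 held 119 TPM. The ESC-derived cells were below 2D EpiSCs in every library (-4.97 ± 1.08, adjusted p = 0.00393), and without library 3 the difference widened to -6.68. When close pairs were averaged it was -4.07 and no longer called (adjusted p = 0.0723). In the embryo-derived cells the difference of -1.32 ± 1.08 did not pass (adjusted p = 0.38), although no library overlapped. Defining visceral endoderm markers were at or near 0 in all EpiSCs: Afp averaged 0.0426 TPM or less and Ttr 0.0862 TPM or less in every EpiSC culture. Some other genes of endoderm were lower along with Cer1 in ESC-derived 3D EpiSCs. Sox17 and Gata6, with means of 25.0 and 21.5 TPM in 2D EpiSCs, were at 2.41 and 1.87 TPM there. Both were called lower, as were Hhex (-2.97), Gata4 (-2.83) and Gsc (-1.68). Of the other markers of primitive and definitive endoderm, Foxa2 (-0.14), Pdgfra (-0.52), Chrd (0.05) and Trh (0.46) were not called. Sox7 was not tested. The part of such cells in the Cer1 level was not tested.

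Library 3 of the ESC-derived 3D EpiSCs also differed from libraries 1 and 2 in Lhx1 (22.6 against 1.64 and 1.21 TPM) and in the endoderm genes Sox17 (6.73 against 0.262 and 0.235 TPM) and Gata6 (5.42 against 0.0628 and 0.118 TPM). Its Foxa2 (17.2 against 32.6 and 32.5 TPM) and Eomes (24.6 against 41.3 and 40.7 TPM) were lower. Among embryo-derived libraries, library 1 had the least Cer1 and the most Foxa2 (123 against 50.1 and 50.6 TPM) and Eomes (116 against 59.3 and 58.1 TPM). Within both 3D cultures, therefore, the library or libraries with more Cer1 had less Foxa2 and Eomes, chosen after the values were seen and without a test. Of the members, Lefty2 and Acvr2b were 1.76 and 1.60 times higher in ESC-derived library 3 than the mean of the other two, and Nodal was 0.696 times as high.

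Acvr2b was at 54.2, 55.2 and 57.6 TPM in 2D EpiSCs and at 22.4, 23.2 and 36.4 TPM in ESC-derived 3D EpiSCs, a difference of -1.03 ± 0.19 (adjusted p = 0.00143) that barely passed the size asked for. It was lost at -0.82 after median-of-ratios rescaling, at -0.92 when close pairs were averaged, and at -0.94 and -0.91 without ESC-derived library 1 or 2. The embryo-derived 3D libraries, at 36.1, 42.4 and 43.5 TPM, were all below 2D EpiSCs but by 0.45 only, which did not pass (adjusted p = 0.0917). Foxh1 (160 to 178 TPM in 2D EpiSCs, 113 to 157 TPM in the 3D cultures) and Smad2 (59.2 to 67.8 TPM and 45.4 to 56.7 TPM) were a little lower in both 3D cultures, by 0.24 to 0.43, and were not called.

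By count, 3 of 9 members were lower in ESC-derived 3D EpiSCs than in 2D EpiSCs and none was higher, beside 9.89% of the 11541 tested genes called, 0.633% higher and 9.25% lower. For the embryo-derived cells 1 member was higher and 1 lower, beside 8.82% called, 1.07% higher and 7.75% lower. Both comparisons use the same 2D libraries. The median of all tested genes was itself -0.21 in the first and -0.08 in the second, and that of the members -0.35 and -0.34. Median-of-ratios rescaling took the first of these to -0.01, and 1 member, Cer1, was then called.

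**Figure D5:**
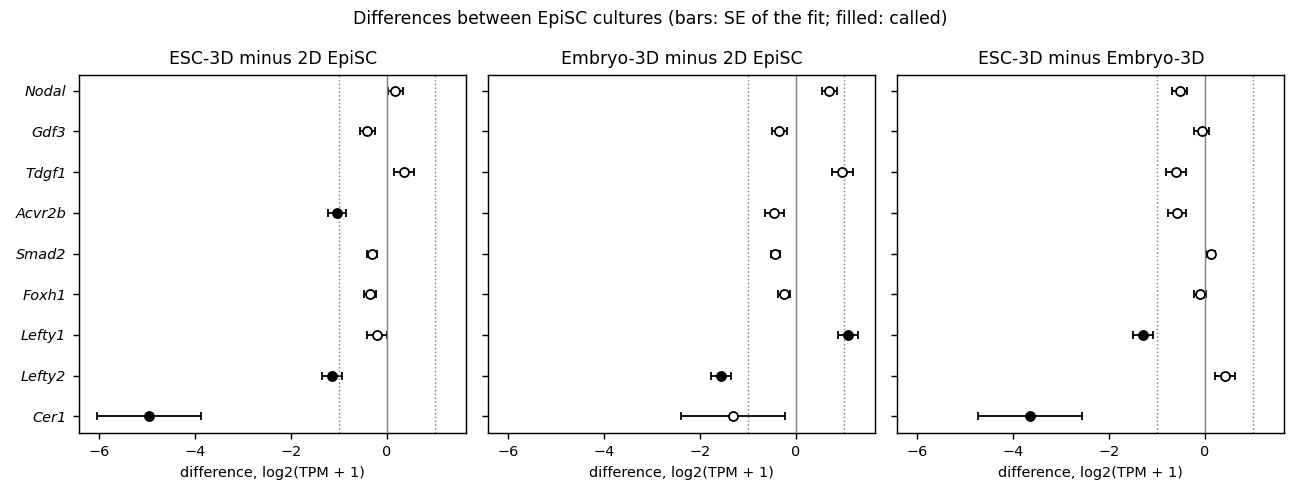
Difference in log2(TPM + 1) of each member for the 3 pairs of EpiSC cultures, with the standard error of the limma fit; filled points were called, and dotted lines mark the size asked for. Lefty2 lies left of -1 in both comparisons with 2D EpiSCs, Lefty1 lies right of 1 for the embryo-derived cells at 1.08, and Cer1 has the widest bars, with an SE of 1.08.

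The 2 kinds of 3D EpiSCs shared medium and matrix but not origin, and differed from each other in 2 of 9 members, both lower in the ESC-derived cells, beside 3.96% of tested genes called (1.98% higher and 1.98% lower). Lefty1 was lower in the ESC-derived cells by 1.30 ± 0.20 (adjusted p = 0.00163), with no overlap of libraries. When close pairs were averaged the difference was -1.17 and not called (adjusted p = 0.0609). Cer1 was lower by 3.65 ± 1.08 (adjusted p = 0.0358), but library 3 of the ESC-derived cells overlapped the embryo-derived range, and the call was lost in 7 of 14 alternative fits. Nodal differed by -0.52 ± 0.16 (adjusted p = 0.0376) and Tdgf1 by -0.61 ± 0.21 (adjusted p = 0.0623), neither of which was called.

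Targets of the pathway were lower in the ESC-derived than in the embryo-derived 3D cells for 5 of 8 genes, and none was higher. Over all tested genes, 1.98% were lower and 1.98% higher. Mixl1 was at 2.61 to 5.61 and 16.3 to 23.5 TPM (-2.09 ± 0.30, adjusted p = 0.000818), Gsc at 5.95 to 16.1 and 35.9 to 38.6 TPM (-1.98 ± 0.28, adjusted p = 0.000734), and Lhx1 (-3.10), Foxa2 (-1.33) and Eomes (-1.07) were also called. The median of the 8 targets was -1.20, against -0.12 over all tested genes. In the embryo-derived cells Foxa2 and Eomes were highest in library 1, at 123 and 116 TPM. Libraries 2 and 3 held 50.1 to 50.6 TPM of Foxa2 and 58.1 to 59.3 TPM of Eomes. The ESC-derived libraries were lower, at 17.2 to 32.6 and 24.6 to 41.3 TPM. Whether these calls hold without embryo-derived library 1 is not given here. Against 2D EpiSCs, the ESC-derived cells had less Lhx1 (-4.30 ± 0.66) and Gsc (-1.68 ± 0.28) and more Smad7 (1.09 ± 0.16), while the embryo-derived cells had more Mixl1 (1.44 ± 0.30), Smad7 (1.20 ± 0.16), Foxa2 (1.19 ± 0.32) and Pmepa1 (1.03 ± 0.17), and no target was lower. Smad7 encodes an inhibitory Smad. The Pmepa1 difference barely passed the size asked for, with 2D libraries at 22.6, 28.4 and 37.5 TPM. Foxa2 was at 24.6 to 33.0 TPM in 2D EpiSCs, beside the uneven embryo-derived values above. How the Pmepa1 and Foxa2 calls hold with 1 library left out is not given here either. The co-receptor gene Cfc1 was lower than in 2D EpiSCs in both 3D cultures (-3.49 ± 0.53 and -1.75 ± 0.53), as was Fstl3, which encodes a follistatin relative (-1.002 ± 0.16 and -1.50 ± 0.16). Cfc1 was listed at 0 in 2 of 3 ESC-derived libraries and was lower there than in the embryo-derived cells (-1.75 ± 0.53). Gdf1 averaged 3.03 TPM in the ESC-derived cells, 0.233 TPM in 2D EpiSCs and 0.0244 TPM in the embryo-derived cells. The log2 differences of the ESC-derived cells were 1.71 from 2D EpiSCs and 1.97 from the embryo-derived cells. As above, the values of Gdf1 are uncertain.

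EpiLCs, the culture nearest in time to the naive state, differed from all EpiSCs in the same 2 members. Gdf3 was at 47.2, 68.4 and 75.3 TPM in EpiLCs and under 0.63 TPM in every EpiSC library, with differences of -5.40 (2D), -5.81 (ESC-derived 3D) and -5.74 (embryo-derived 3D). It passed the filter on low values through EpiLCs alone and so had to differ. Cer1 was listed at 0 in 2 EpiLC libraries and at 0.0322 TPM in the third, and was called higher in all 3 EpiSC cultures, through which alone it passed the filter. The ESC-derived call was lost in a fit of the 2 groups alone (adjusted p = 0.0657) and whenever 1 EpiLC library was left out (adjusted p = 0.0533 to 0.0554).

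Other members told the EpiSC cultures apart from EpiLCs one by one. Acvr2b, at 19.2, 27.2 and 29.5 TPM in EpiLCs, was higher in 2D EpiSCs (1.13 ± 0.19, adjusted p = 0.000337). Lefty1, at 114, 175 and 199 TPM in EpiLCs, was higher in embryo-derived 3D EpiSCs (1.60 ± 0.20, adjusted p = 4.92e-05). Lefty2, at 37.4, 38.5 and 43.7 TPM in EpiLCs, was not called. In embryo-derived 3D EpiSCs its difference of -0.94 ± 0.21 (adjusted p = 0.00275) was just under the size asked for. It was called lower there in 4 of 14 alternative fits. In 2D and ESC-derived 3D EpiSCs its differences were 0.61 and -0.52. Nodal (44.7 to 57.7 TPM in EpiLCs), Tdgf1 (299 to 375 TPM), Smad2 (60.9 to 66.8 TPM) and Foxh1 (125 to 131 TPM) were not called in any comparison with EpiLCs. Relative to EpiLCs, 2 members were higher and 1 lower in 2D EpiSCs, beside 20.4% of tested genes called, 15.2% higher and 5.14% lower. For the ESC-derived 3D cells 1 was higher and 1 lower, beside 12.4%, 5.33% higher and 7.11% lower. For the embryo-derived cells 2 were higher and 1 lower, beside 18.8%, 10.5% higher and 8.28% lower. Without Gdf3 and Cer1, which the filter favored, these counts were 1 higher (Acvr2b), 0, and 1 higher (Lefty1), with none lower. Acvr2b in 2D EpiSCs fell to 0.91, under the size asked for, after median-of-ratios rescaling.

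While Nodal, Tdgf1, Smad2 and Foxh1 were not called against EpiLCs, 6 of 8 targets were higher in each EpiSC culture than in EpiLCs, and they were the same 6: Pmepa1, Lhx1, Eomes, Mixl1, Gsc and Foxa2. The comparisons share the EpiLC libraries. Of the 6, only Pmepa1 and Eomes were above 2 TPM in EpiLCs. Lhx1, Gsc, Foxa2 and Mixl1 were there at most at 0.316, 0.387, 0.721 and 1.36 TPM. They passed the filter on low values through EpiSCs alone, which favored a rise, and they enter the medians of the targets. The same holds for the filter on Cfc1, at most 0.125 TPM in EpiLCs. Some markers of other lineages were also higher in 2D EpiSCs than in EpiLCs, among them Sox17 (4.43), Krt8 (4.33), Gata6 (4.22), T (3.99) and Gata4 (2.68). Of these, only Krt8 was above 2 TPM in EpiLCs. Cdx2, Mesp1, Tbx6, Sox7, Afp and Ttr stayed under 1 TPM in both. Of 6 markers each, those averaging above 1 TPM went from 0 to 4 for primitive endoderm and from 1 to 3 for trophectoderm. They went from 0 to 1 for visceral endoderm, from 3 to 6 for definitive endoderm, and stayed at 3 for mesoderm. The part of such cells in the target levels was not tested. The median of the targets was 2.56 in 2D, 1.86 in ESC-derived 3D and 3.56 in embryo-derived 3D EpiSCs, against 0.18, 0.01 and 0.10 over all tested genes. Eomes was at 3.19, 4.67 and 5.32 TPM in EpiLCs and Foxa2 at 0.559 to 0.721 TPM, and in 2D EpiSCs they were at 48.3 to 51.0 TPM (3.26 ± 0.27) and 24.6 to 33.0 TPM (4.21 ± 0.32). Skil, which encodes a nuclear repressor of Smad transcription, was highest in EpiLCs, at 175 ± 44.5 TPM among the cultures, and was lower in ESC-derived 3D EpiSCs at 79.98 ± 14.9 TPM (-1.11 ± 0.17, adjusted p = 0.000246). Of the other genes, Furin, whose product cleaves the Nodal precursor, was higher in all 3 EpiSC cultures than in EpiLCs, by 1.42 to 2.07. Cfc1 (4.23), Smad3 (1.67), Acvr1b (1.19), which encodes a type I receptor, and Bambi (1.19) were higher in 2D EpiSCs, and Cfc1 (2.48), Fst (1.57) and the receptor gene Tgfbr1 (1.11) in the embryo-derived cells. Fstl3 was lower in the ESC-derived (-1.10) and the embryo-derived cells (-1.60). In all, 11 of 26 tested list genes were higher and 1 lower in 2D EpiSCs, 7 and 2 in ESC-derived 3D EpiSCs, and 10 and 2 in embryo-derived 3D EpiSCs. Over all tested genes, 20.4%, 12.4% and 18.8% were called in these comparisons. The genes counted as higher include Lhx1, Gsc, Foxa2 and Mixl1, and in 2D and embryo-derived cells Cfc1, all favored by the filter. The one lower in 2D EpiSCs, Gdf1 (-2.23, and -2.49 in the embryo-derived cells), shares a transcript unit with Cers1, so its value is uncertain.

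Last, the genes whose course was most like those of 3 members were listed, by the root mean square difference of log2(TPM + 1) after each gene was centered on its mean. Over the 15 embryo libraries, Nodal (SD of 1.42) was nearest to Nefl (0.45), Hspa1b (0.559), Hspa1a (0.585), Skil (0.622) and Hist1h2aa (0.666). Skil was the one gene of the pathway list among them. Cer1 (SD of 2.59) was nearest to Pkdcc (0.354), Fzd2 (0.471), Msi1 (0.489), Slc13a4 (0.508) and Robo1 (0.518). Lefty2 (SD of 1.42) was less closely matched, with Foxq1 (0.634), Rnf208 (0.664), Hpdl (0.669), Steap3 (0.699) and Arhgap22 (0.716).

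Over the 12 culture libraries, Cer1 (SD of 3.70) was nearest to Pga5 (0.98) and to the target gene Lhx1 (0.99), followed by Cyp26a1 (1.24), Flt1 (1.63) and Grb10 (1.72). Nodal varied little (SD of 0.34), and the genes nearest to it, Lrrc4 (0.115), Tmem39b (0.122), Zbtb2 (0.143), Armc5 (0.145) and Zmpste24 (0.147), shared none with the list from the embryo. For Lefty2 (SD of 0.66) they were Akap12 (0.18), Myo1c (0.19), Arhgap29, Fam174b and Syngr3 (0.228 each). These likenesses are descriptions over libraries that fall into a few groups.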

How the data were processed

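Bulk RNA-seq of 12 culture libraries (stranded poly-A kit) and 15 embryo libraries (stranded total RNA kit for small inputs, ribosomal cDNA removed) was read from 1 table of TPM values. Per the labels and the study's methods, adapters were removed by cutadapt 2.4, STAR placed the reads on mm10, and the authors obtained the deposited TPM from StringTie with GENCODE gene models. Read depth cannot be recovered from TPM, so no counting error is given. The other samples of the series (35 in all) were not used here. Lines with a repeated identifier (12 identifiers) were summed, and empty cells were read as 0.

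The study's methods test raw counts. Here log2(TPM + 1) was fitted with limma 3.58.1 in R 4.3.3, separately over all culture and all embryo libraries, on autosomal protein-coding genes above 2 TPM in at least 3 libraries (11541 and 11880 genes), with Benjamini-Hochberg adjustment. A call needed an adjusted p under 0.05 and a log2 difference over 1 in size. Errors of differences are SE from the fit, and errors of levels are SD of 3 libraries. On simulated data with log2 differences of 2, 198 of 200 changed genes were recovered among 11541 genes (ESC-derived against embryo-derived 3D), with 4 false calls. Among 11880 genes (E3.5 against E4.5) it was 198 of 200, with 0 false calls. The simulated size lay above the size asked for and the changed genes were not near 0 TPM. Recovery of differences near 1 or of genes near 0 TPM was thus not measured. All members were named in every group. Of the other genes, those called in the pathway list were given values or counted, and the 5 genes nearest to Nodal, Lefty2 and Cer1 were named. 1 gene of the pathway list as first drawn up is not reported here and was left out of its counts. The members and lists were chosen with earlier results of these data known. Alternatives were another pseudocount, no filter, all genes past the filter, median-of-ratios scaling, an intensity trend, only the groups compared, the replicate number as a block, each library left out and, for the cultures, close libraries averaged.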

Additional observations from a re-analysis of the deposited data

Results flagged for a closer look

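The embryo-derived and the ESC-derived 3D EpiSCs departed from 2D EpiSCs by different amounts in 2 members, as tested directly between the 3D cultures with limma. For Lefty1 the difference between these departures was -1.30 (adjusted p = 0.00163), and for Cer1 it was -3.65 (adjusted p = 0.0358). Lefty1 was lower in all 3 ESC-derived libraries than in any embryo-derived library. Cer1 was lower in 2 of 3 ESC-derived libraries than in any embryo-derived library, and the third, at 119 TPM, lay between the lowest and the highest of them.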

How the results depend on the processing

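Of 1210 member differences recomputed under the alternatives, 1168 kept their side of the threshold, 25 lost a call and 17 gained one. Where either fit made a call, 0 changed direction. Differences without a call could change sign within the 1168. Foxh1 did so at E7.5 (0.25 to -0.08), as did Lefty1 between ESC-derived 3D and 2D EpiSCs (-0.21 to 0.01). The number of members called between the 3D cultures went from 2 to 1 with no filter and with only these 2 groups fitted, and to 0 with close libraries averaged. Against 2D EpiSCs it went to 1 for ESC-derived cells under median-of-ratios scaling, and to 1 for either 3D culture with close libraries averaged, where fewer samples remain. For ESC-derived cells against EpiLCs it went to 1 with only these groups fitted, and for E6.5 against E5.5 to 2 with a pseudocount of 0.1. With 1 library left out, the counts ran from 2 to 3 (ESC-derived 3D against 2D), 2 to 3 (embryo-derived 3D against 2D), 1 to 2 (between 3D cultures), 0 to 2 (ESC-derived 3D against EpiLC), 1 to 3 (2D against EpiLC), 2 to 4 (embryo-derived 3D against EpiLC), 2 to 4 (E4.5 against E3.5), 6 to 7 (E5.5 against E4.5), 1 to 2 (E6.5 against E5.5) and 4 to 5 (E7.5 against E6.5). Any EpiLC library left out removed Gdf3 from the test, since it then failed the filter, and E4.5 library 1 left out gave the 4 calls at E4.5.

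The total of calls over all tested genes moved by over 1.5 times between the 3D cultures (374 higher and 345 lower with a pseudocount of 0.1, and 181 and 90 with close libraries averaged, against 228 and 229), between ESC-derived 3D and 2D EpiSCs (49 and 679 with close libraries averaged, against 73 and 1068), between E5.5 and E6.5 (136 and 126 with a pseudocount of 0.1, and 125 and 191 over all genes past the filter, against 85 and 57) and between E6.5 and E7.5 (2041 and 324 over all genes past the filter, against 1265 and 231). In 1 direction only, calls moved as far for embryo-derived 3D against 2D (312 higher over all genes past the filter, against 123), ESC-derived 3D against 2D (133 higher with median-of-ratios scaling and 129 with a pseudocount of 0.1, against 73), between 3D cultures (427 lower without ESC-derived library 3 and 149 with median-of-ratios scaling, against 229), 2D against EpiLC (342 to 375 lower without any 1 EpiLC library, against 593), ESC-derived 3D against EpiLC (544 lower without EpiLC library 1, against 821) and E7.5 (736 higher and 382 lower with median-of-ratios scaling, and 354 lower with a pseudocount of 0.1). Median-of-ratios scaling moved the share of calls that were higher from 49.9% to 64.4% between 3D cultures, from 74.8% to 63% for 2D EpiSCs against EpiLCs, and from 84.6% to 65.8% at E7.5. The cause of these shifts was not tested. Same-numbered libraries did not deviate together (mean correlation -0.0299 in culture and -0.0166 in the embryo), so the numbers do not pair them. With the replicate block, the members called were as many as without it in each comparison: 3, 2 and 2 among EpiSC cultures, 3, 2 and 3 against EpiLCs, and 2, 6, 1 and 5 along the embryo stages. Groups of 3 libraries and the unknown depth limit what could be seen for members near 0 TPM.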
